A study of Mus musculus with 12 samples.

Results

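Fgfr1, Dusp6 and Spry4 are 3 genes of fibroblast growth factor (FGF) signalling, which were examined here through their m6A peaks in mouse embryonic stem (ES) cells. They were chosen by name after earlier results on the same tables were known, so their values describe them and were not tested. Every row that carried one of the 3 gene symbols was taken, and each peak was followed by its coordinates from table to table. The 3 genes, of 6074 genes named in the 4 tables, carried 4 peaks in 16 of 31518 rows. Fgfr1 had 1 peak in its 5' UTR and 1 at its stop codon, Dusp6 had 1 in its coding sequence, and Spry4 had 1 that ran from the end of its 5' UTR over its coding sequence into the 3' UTR.

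The cells were J1 mouse ES cells, which grew with serum and LIF on a layer of irradiated embryonic fibroblasts. They carried a lentiviral shRNA against Mettl14, a lentiviral shRNA against Mettl3 or a scramble shRNA, and every group, scramble included, had been selected with puromycin. Fragments of poly(A) RNA were pulled down with an anti-m6A antibody, and each of the 3 groups had 2 such immunoprecipitation (IP) libraries. The 4 deposited tables fall into 2 sets of libraries, called set 1 and set 2 here, and both tables of a set use 1 common scramble library. The labels number the IP libraries 2 and 4 in each group, no source used here ties a number to a set, and the series describes each library as 1 biological replicate. Whether any feeder RNA entered the libraries is not stated, and the cells are selected populations, not single clones. The tables hold peaks but no expression values, so the level of the 3 mRNAs and the depth of the knockdowns were not measured here.

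N6-methyladenosine, m6A, is added to mRNA by a complex in which Mettl3 is the catalytic subunit and Mettl14 helps to bind the RNA. The mark is known to favour a short consensus around the methylated A and to gather in long internal exons and near stop codons. FGF signalling starts when a ligand such as Fgf4 brings Fgf receptors together. The signal runs through Ras and a kinase cascade to ERK, and in mouse ES cells it favours the exit from the naive state. ERK activity induces its own inhibitors: Dusp6 is a cytoplasmic phosphatase that inactivates ERK, and Spry4 is a Sprouty protein that dampens receptor signalling upstream of ERK. Fgfr1 is a receptor of the pathway that ES cells use.

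The sequences under the peaks of Fgfr1 and Dusp6 are shown because they hold every site of the m6A consensus in its most typical form, GGACT, that lay within the limits of those peaks. Some of the sites are close to a summit, and others, such as the second 5' UTR stretch and the site in exon 17 of Fgfr1, are farther away. They were read from the GENCODE transcripts of the GRCm38 assembly, which is mm10, the build of the tables. GGACT, on the transcribed strand, stands in capitals. The 2 stretches from the 5' UTR of Fgfr1 lie at chr8:25518921-25518945 and chr8:25519014-25519038. The coding part of the last exon of Fgfr1, with its stop codon, lies at chr8:25573745-25573921, and a further site in the exon before it lies at chr8:25573551-25573575. The first 300 bases of exon 2 of Dusp6, all coding, lie at chr10:99264544-99264843. All 5 are on the plus strand.
Fgfr1 5' UTR, first stretch: cgagacgtccGGACTGGACTgagac
Fgfr1 5' UTR, second stretch: cggagaccgaGGACTtttctcaggt
Fgfr1 exon 17: tgatgatgcgGGACTgctggcatgc
Fgfr1 last exon: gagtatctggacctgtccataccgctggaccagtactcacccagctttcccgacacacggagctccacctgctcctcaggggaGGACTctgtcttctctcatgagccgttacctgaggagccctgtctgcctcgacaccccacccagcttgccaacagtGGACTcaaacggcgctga
Dusp6 exon 2: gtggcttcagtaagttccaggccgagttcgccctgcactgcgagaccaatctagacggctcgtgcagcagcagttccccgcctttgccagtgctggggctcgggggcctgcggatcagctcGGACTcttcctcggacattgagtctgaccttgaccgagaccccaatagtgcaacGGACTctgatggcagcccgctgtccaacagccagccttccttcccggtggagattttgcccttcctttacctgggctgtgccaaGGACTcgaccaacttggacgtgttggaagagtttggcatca

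Each of the 3 peaks of Fgfr1 and Dusp6 held 3 GGACT motifs within its limits in the set 1 scramble library. Per kb of exon sequence this was 5.78 for the Fgfr1 5' UTR peak, 4.86 for the Fgfr1 stop codon peak and 6.85 for the Dusp6 peak. The Fgfr1 stop codon peak reached farther into the 3' UTR in set 2, and within those limits its density was 2.55 per kb with Mettl3 knockdown and 2.48 per kb with scramble. Over the 6412 set 1 scramble peaks that lay on transcripts the density was 1.71 per kb, and 64.7% of those peaks held at least 1 GGACT. The peak of Spry4 differed: in 2350 nt of exon sequence it held 1 GGACT, in the 3' UTR, or 0.426 per kb. That 1 site lay inside the peak limits of the set 1 scramble library alone, and the narrower limits of the other 5 libraries held 0 GGACT. The wider DRACH consensus (D stands for A, G or T, R for A or G, and H for A, C or T) varied less, with 42 sites or 17.9 per kb in Spry4. The Fgfr1 5' UTR, Fgfr1 stop codon and Dusp6 peaks held 19.3, 24.3 and 20.5 DRACH sites per kb, and all scramble peaks of set 1 averaged 22.2 per kb. GGACT is one of the sequences that DRACH includes. A match describes the sequence and does not show that the A is methylated.

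The summit of a peak is the position of its highest read pile-up, which was deposited for knockdown peaks and for scramble peaks absent from a knockdown library. In the Fgfr1 5' UTR peak the 3 deposited summits lay within 4 nt of each other, and the A of the nearest GGACT stood 11 to 15 nt after them. In the Dusp6 peak the 4 summits lay within 9 nt, at positions 90 to 99 of exon 2, and the nearest GGACT stood 25 to 34 nt after them. In the Fgfr1 stop codon peak 3 summits lay 29 to 33 nt before the stop codon and 16 to 20 nt before a GGACT. The fourth, of the Mettl3 knockdown library of set 1, lay 55 nt after the first base of the stop codon. In Spry4 the 4 summits were spread over 131 nt of coding sequence, 68 to 199 nt before the stop codon, and the nearest GGACT was 1336 to 1467 nt away. A window of 101 nt around the summit held 2 GGACT sites in the Fgfr1 5' UTR peak and 1 in the Dusp6 peak in every library with a summit. In the Fgfr1 stop codon peak it held 1 in 3 libraries and 0 in the Mettl3 knockdown library of set 1. In Spry4 it held 0 GGACT in all 4 libraries with a summit, and 0 DRACH sites in both knockdown libraries of set 2. Among 21511 summit windows of that length in all libraries, 24.2% held a GGACT and 93.5% a DRACH site.

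**Figure D1:**
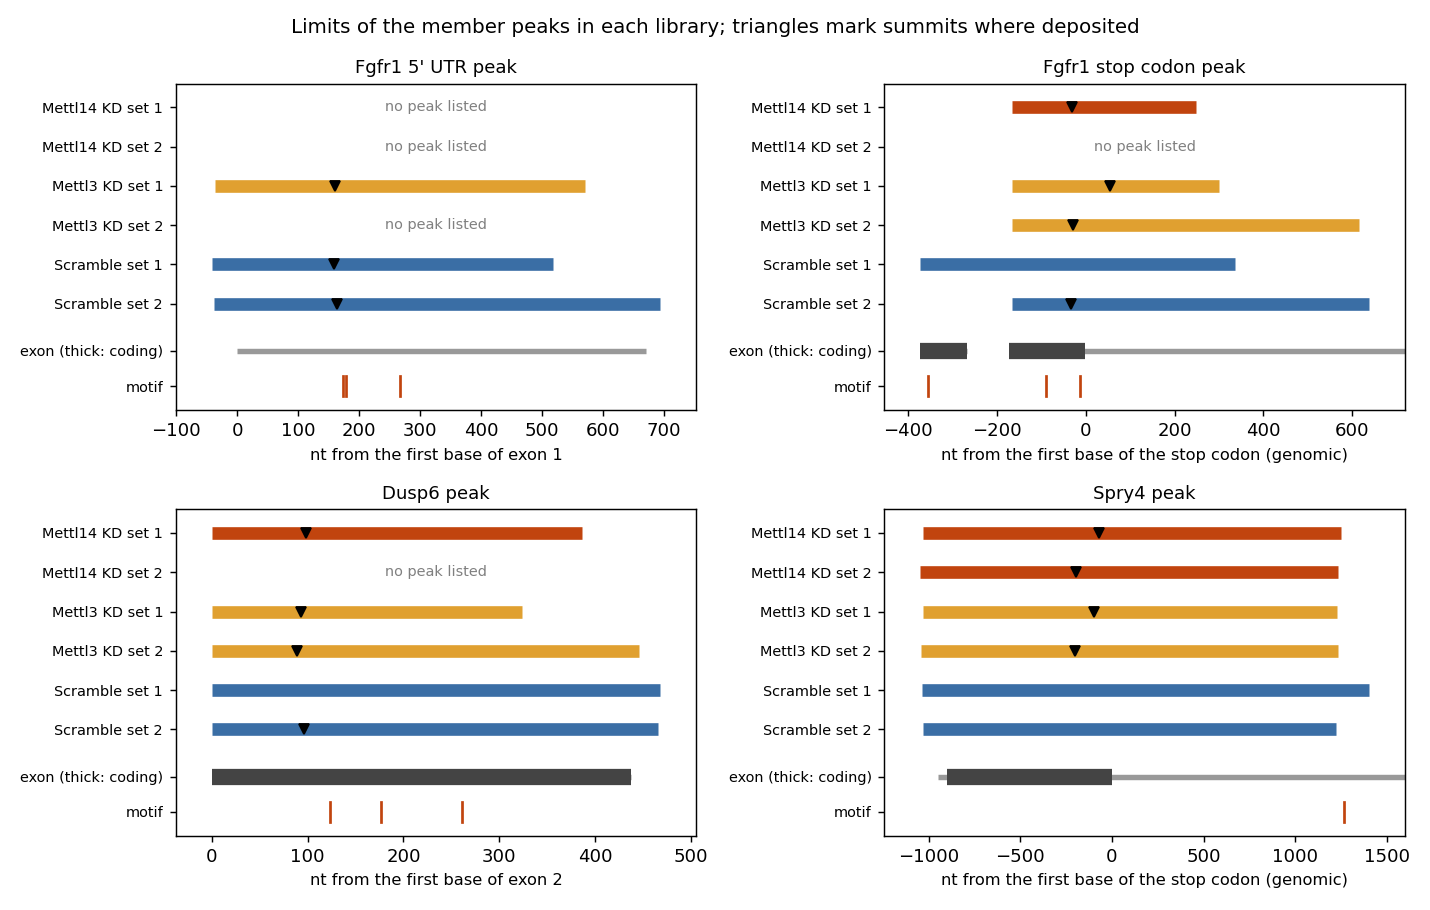
Limits of the 4 member peaks in each library that lists them (bars), with deposited summits (triangles), exons (grey line, thick where coding) and GGACT sites (red ticks), against distance in nt along the transcribed strand. The Dusp6 peak begins at the first base of exon 2 in all 5 libraries that list it, and the Spry4 peak holds a single GGACT site at its far 3' end.

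The 5' UTR peak of Fgfr1, the receptor, was present in both scramble libraries and in 1 of the 4 knockdown libraries. It lay in exon 1 of transcript ENSMUST00000084027 (chr8:25518759-25519429), which is untranslated along its whole length, and its summits lay 596 to 600 nt of spliced sequence before the start codon. No peak was listed there in the Mettl14 knockdown libraries of either set. The Mettl3 knockdown library of set 1 listed it with an enrichment, the ratio of IP to control reads in the peak by the caller, of 9.58, and that of set 2 did not list it. Its enrichment was 13.62 and 14.94 in the scramble libraries. The peak was therefore lost, that is listed for scramble only, in 3 of 4 tables, and the 1 knockdown value was below both scramble values. Among the 4074 scramble peaks found in both sets and in at least 1 knockdown library, 14.5% had every listed knockdown value below both. The log2 change of Mettl3 knockdown over scramble in set 1 was -0.50 in the authors' deposited tables.

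That 1 knockdown peak stood near the edge of what the caller reported. It held 67 IP reads over 609 nt with Mettl3 knockdown in set 1, and the scramble peaks held 98 reads over 561 nt and 120 reads over 734 nt. Its score, which is 10 times the negative log10 of the p-value from the caller, was 148.6, against a lowest listed score of 146.09 in the same library, and its deposited false discovery rate (FDR) was 9.03%. The scramble peaks had scores of 297.84 and 344.79 and FDRs of 0.86% and 2.99%. A peak called lost can therefore be one that scored below such a threshold, and the tables give no value for it. These are bulk libraries, in which less marking per mRNA and a change in the cells that supply the mRNA cannot be told apart.

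The stop codon peak of Fgfr1 had lower enrichment in each of the 3 knockdown libraries that listed it, and 1 knockdown library did not list it. With Mettl14 knockdown the enrichment was 4.2 in set 1, and no peak was listed in set 2. With Mettl3 knockdown it was 4.56 and 5.56. In the scramble libraries it was 6.29 and 6.2, so every listed knockdown value was below both, although the highest lay close to them. Every listed knockdown value was so in 14.5% of the 4074 scramble peaks found in both sets and in at least 1 knockdown library. The library that did not list the peak has no value. Over the libraries that listed it the enrichment averaged 4.77 ± 0.70 in knockdown libraries (SD, n = 3) and 6.25 ± 0.06 in scramble libraries (SD, n = 2). The authors' deposited tables gave log2 changes of -0.72 for Mettl14 knockdown in set 1 and -0.46 and -0.87 for Mettl3 knockdown in sets 1 and 2. The last of these was -0.16 without the authors' scaling constant for that table, and 0.040 once the median of all shared peaks was set to 0.

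The limits of this peak differed between libraries as well. With knockdown the peak was 415 nt wide for Mettl14 in set 1 and 469 nt and 783 nt wide for Mettl3, against 710 nt and 805 nt in scramble. The set 1 scramble peak (chr8:25573546-25574255) began at the first base of exon 17, ran over the intron and covered 280 coding bases. The other 4 began just inside the last exon and covered 166 or 167 coding bases, so the set 1 changes compare regions of unequal extent. The site in exon 17 printed above lay in that 1 peak only. The enrichment of this peak was low for the libraries: 0.787% of peaks had a lower enrichment in the Mettl14 knockdown library of set 1, 0.944% and 7.21% in the Mettl3 knockdown libraries, and 7.28% and 6.4% in the scramble libraries. Its FDR was 4.63% for Mettl14 knockdown and 4.1% and 7.8% for Mettl3 knockdown, against 5% in the 1 scramble library for which it was deposited.

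Dusp6, the ERK phosphatase, had the most negative log2 changes of the member peaks in each of the 3 tables that shared it. Its peak lay on exon 2 (chr10:99264544-99264981), an internal exon that is coding throughout, and began at the exon's first base in all 5 libraries that listed it. It covered 387 and 325 of the exon's 438 nt in the Mettl14 and Mettl3 knockdown libraries of set 1, and the whole exon in the Mettl3 knockdown library of set 2 and both scramble libraries. Of all set 1 scramble peaks, 1.47% had a limit exactly at an annotated exon edge. The enrichment was 6.5 with Mettl14 knockdown in set 1, and no peak was listed in set 2. With Mettl3 knockdown it was 7.02 and 6.46. In the scramble libraries it was 15.91 and 10.73, and every listed knockdown value lay below both, as in 14.5% of the 4074 scramble peaks described above. The mean was 6.66 ± 0.31 in knockdown libraries (SD, n = 3) and 13.32 ± 3.66 in scramble libraries (SD, n = 2).

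The knockdown mean of Dusp6 leaves out the Mettl14 knockdown library of set 2, which listed no peak and has no value. As log2 changes the authors' deposited tables gave -1.43 for Mettl14 knockdown in set 1 and -1.18 and -1.45 for Mettl3 knockdown in sets 1 and 2. Without the scaling constants they were -1.29, -1.18 and -0.73, and with the median of shared peaks at 0 they were -1.37, -1.40 and -0.53. The sign was the same under each scaling, and the size in set 2 depended on it. In set 1, 5.73% of peaks shared with Mettl14 knockdown and 4.76% of those shared with Mettl3 knockdown had a lower log2 change than Dusp6. In set 2 it was 21.9% of those shared with Mettl3 knockdown.

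The number of IP reads in the Dusp6 peak differed less than its enrichment did, as far as counts were deposited. The peak held 105 reads over 387 nt with Mettl14 knockdown in set 1, and 104 reads over 325 nt and 90 reads over 447 nt with Mettl3 knockdown. The 1 scramble peak with a deposited count, that of set 2, held 103 reads over 467 nt. Read density was therefore 20.1 per 100 nt with Mettl3 knockdown and 22.1 per 100 nt with scramble in set 2, a log2 ratio of -0.13 with no correction for library depth, beside -1.45 from enrichment. Library depths and the reads of the control libraries are not in the tables, so what each adds to this gap was not tested. The peak lost with Mettl14 knockdown in set 2 had a scramble score of 322.5, and the lowest listed score in that knockdown library was 137.39.

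**Figure D2:**
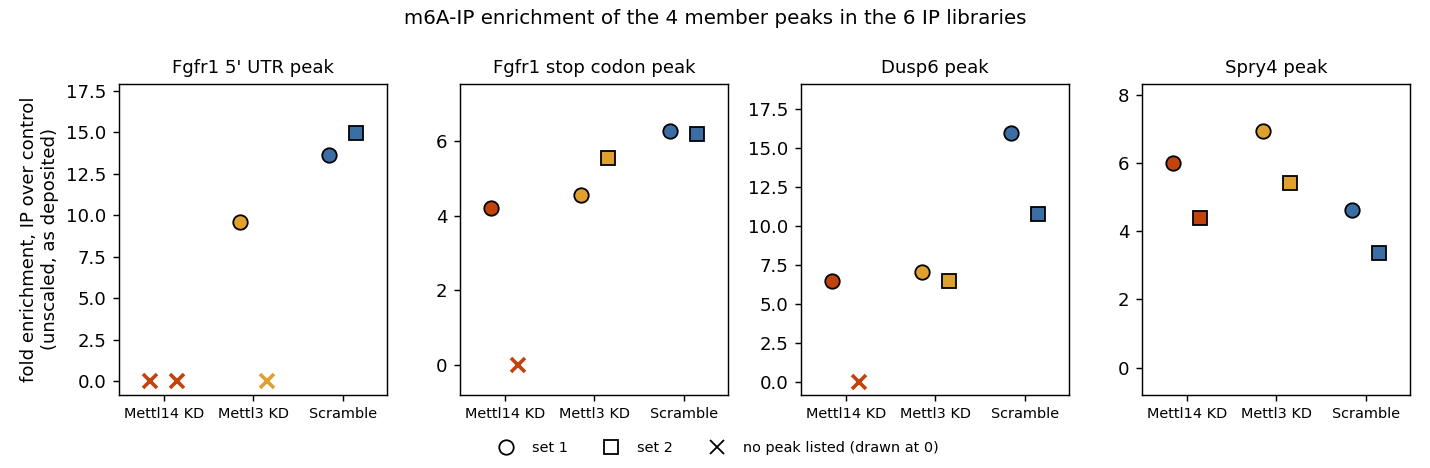
Deposited fold enrichment of IP over control for each member peak, as listed in the Mettl14 knockdown, Mettl3 knockdown and scramble libraries of set 1 (circles) and set 2 (squares), with crosses at 0 where no peak was listed. Listed knockdown values of the Fgfr1 and Dusp6 peaks lie below both scramble values, as in 14.5% of 4074 scramble peaks. Those of the Spry4 peak lie above the scramble value of their own set, as in 13.3% of the 2254 peaks listed in all 6 libraries.

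Spry4, the Sprouty inhibitor, had a different pattern: its peak was listed in all 6 libraries, and its enrichment was higher in the knockdown library than in the scramble library in each of the 4 tables. With Mettl14 knockdown it was 6.01 and 4.39 in sets 1 and 2. With Mettl3 knockdown it was 6.94 and 5.41. In scramble it was 4.62 and 3.37. The knockdown enrichment was 130.1% and 130.3% of the scramble value for Mettl14 in sets 1 and 2, and 150.2% and 161% for Mettl3. Across sets the groups overlapped, because the set 2 value for Mettl14 knockdown was below the set 1 value for scramble. The means were 5.2 ± 1.15 with Mettl14 knockdown, 6.18 ± 1.08 with Mettl3 knockdown and 4.00 ± 0.88 with scramble (SD, n = 2 each), and the set 2 library was the lower one in all 3 groups.

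After scaling of the knockdown enrichments, the log2 changes of Spry4 in the authors' deposited tables were 0.24 and 0.02 for Mettl14 and 0.59 and -0.03 for Mettl3 knockdown. Without the constants they were 0.38 and 0.38, and 0.59 and 0.68. With the median of shared peaks at 0 they were 0.30 and 0.61, and 0.37 and 0.88. The direction of the set 2 value for Mettl3 knockdown thus turned with the scaling. A scaling moves all shared peaks of a table alike, so the rank of Spry4 among them does not depend on it: 69.5% and 85.3% of peaks shared with Mettl14 knockdown and 70.9% and 92.4% of those shared with Mettl3 knockdown had a lower change. Of the 2254 peaks listed in all 6 libraries, 13.3% were, like Spry4, above scramble in all 4 tables by unscaled enrichment. The 2 tables of a set share their scramble library, so the 4 values are not independent.

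The Spry4 peak was also of another shape. It lay in the last exon (chr18:38586247-38590755, minus strand) and covered the whole coding sequence of 900 nt, which that exon holds, with 1218 to 1400 nt of 3' UTR. At its other end the peak took in 47 nt of 5' UTR and 84 to 99 nt outside the annotated exons. It was 2283 and 2280 nt wide with Mettl14 knockdown, 2262 and 2274 nt with Mettl3 knockdown, and 2437 and 2254 nt with scramble. Its width was thus nearly the same in every library, and 97.6% to 99.0% of the peaks of a library were narrower. The median scramble peak was 538 nt wide in set 1 and 651.5 nt in set 2. Its enrichment was among the lowest of each library, with 2.08% to 7.63% of peaks below it in the knockdown libraries and 0.202% to 2% in the scramble libraries. It held 576 and 598 reads for Mettl14 and 629 and 586 for Mettl3 knockdown, and its scores of 352.8 to 955 were far from the lowest listed in those libraries.

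The members' counts are set here beside those of all peaks, and since the members were chosen from these tables nothing is read from them. With Mettl14 knockdown 1 of the 4 peaks was lost in set 1, where 43.3% of all scramble peaks were lost, and 3 in set 2, where 45.9% were. With Mettl3 knockdown 0 of the 4 were lost in set 1, against 45.4% of all, and 1 in set 2, against 41.9%. Of the shared member peaks, 2 of 3 were lower and 1 higher with Mettl14 knockdown in set 1, where 54.6% of all shared peaks were lower and 45.4% higher. The 1 shared member peak in set 2 was higher, where 84.8% of all were lower and 15.2% higher. With Mettl3 knockdown 3 of 4 were lower and 1 higher in set 1, against 35.2% lower and 64.8% higher among all, and 3 of 3 were lower in set 2, against 93% lower and 7.04% higher. Without the scaling constant Spry4 was higher in that table and the other 2 shared member peaks lower, against 63% lower and 37% higher among all. With the median of shared peaks at 0, Dusp6 was lower and 2 member peaks were higher, where 50% of all are higher. For 3 of the 4 member peaks every listed knockdown enrichment was below both scramble enrichments, which held for 14.5% of the 4074 scramble peaks found in both sets and in at least 1 knockdown library.

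**Figure D3:**
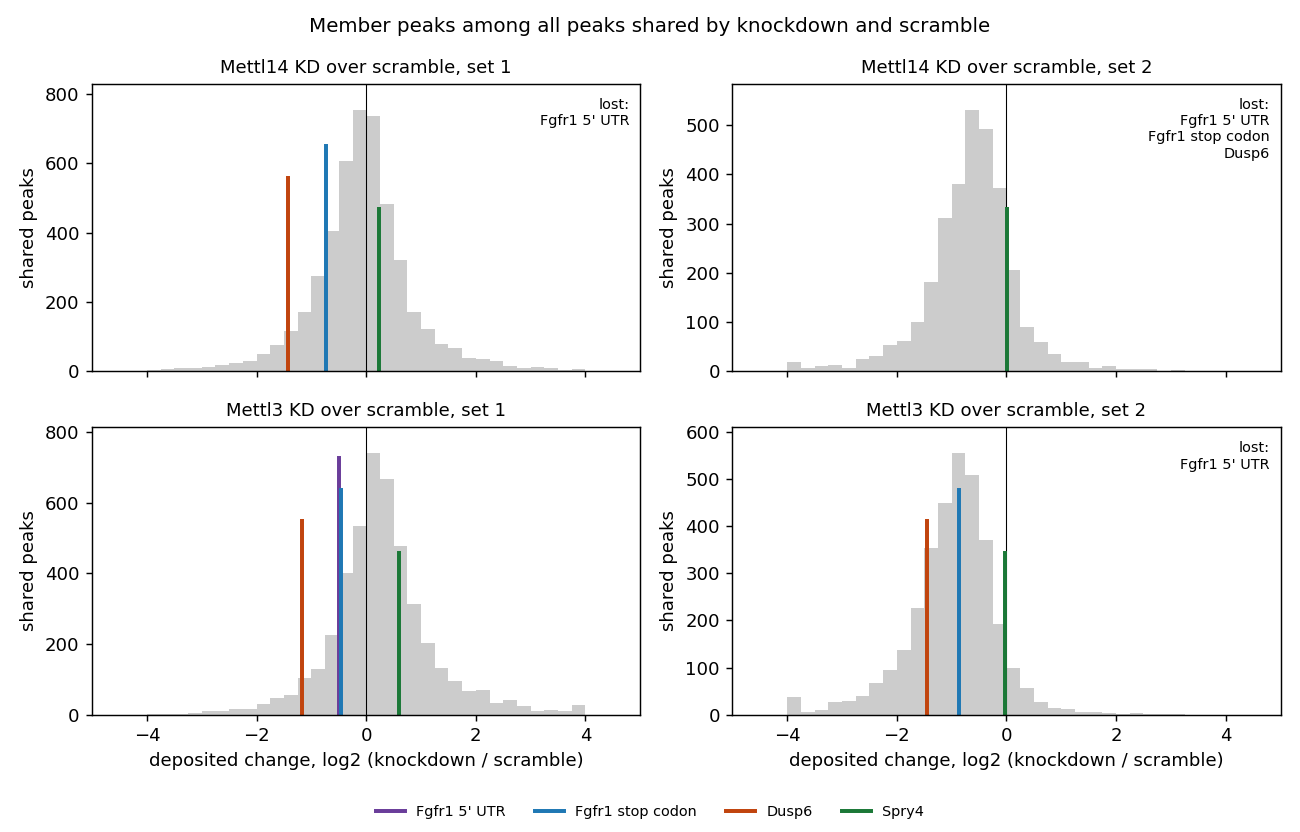
Log2 change of knockdown over scramble for all shared peaks in each of the 4 deposited tables (grey bars, values beyond 4 drawn in the end bars), with the shared member peaks as coloured lines and lost ones named. Dusp6 lies in the lower tail in set 1, and Spry4 lies to the right of most peaks in each table.

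**Figure D4:**
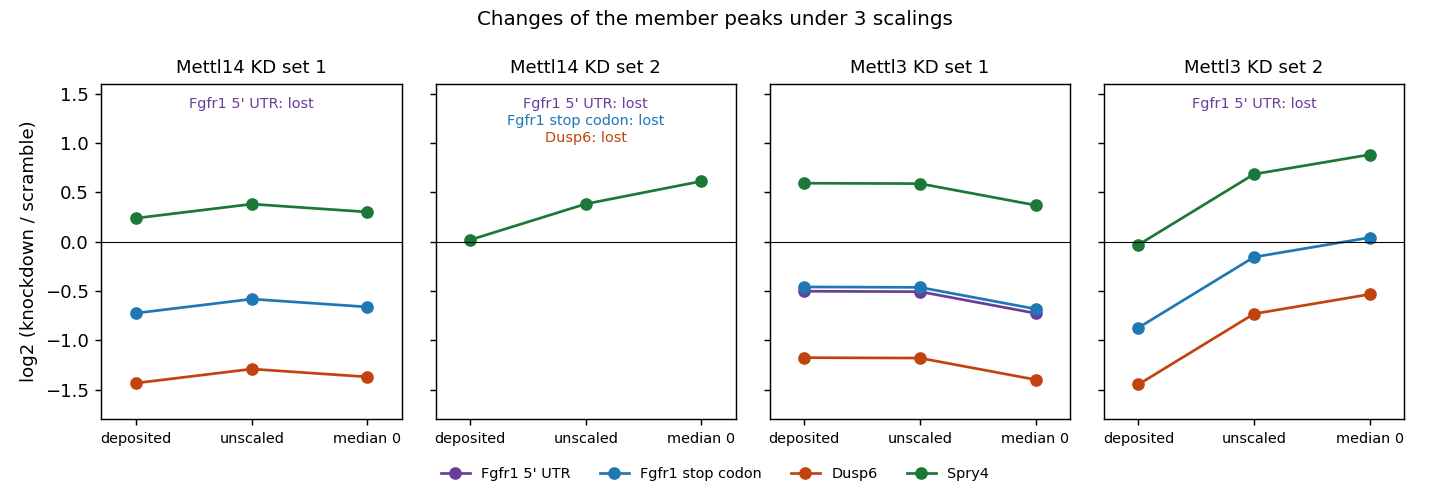
Log2 change of each shared member peak as deposited, without the scaling constant, and with the median of shared peaks set to 0, per table. Dusp6 is below 0 at every point, and Spry4 is above 0 at every point but the deposited Mettl3 value of set 2, which is -0.03.

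The other genes of the pathway were taken from a list of 87 genes in 6 roles, the 3 members included, of which 53 had a peak in at least 1 table and 38 in all 4. A gene was called lower when all its peaks in a table were either lost or below 0 on the log2 scale, and higher when all were either new, that is listed for the knockdown only, or above 0. With Mettl14 knockdown 28 of 48 listed genes were lower and 18 higher in set 1, against 57.9% lower and 27.5% higher among all genes. In set 2, 30 of 40 were lower and 5 higher, against 70.7% and 19.8%. With Mettl3 knockdown 23 of 49 were lower and 20 higher in set 1, against 49.9% and 34.8%, and 34 of 43 lower and 6 higher in set 2, against 75.7% and 16%. In both sets, 19 of 39 genes were lower and 5 higher with Mettl14 knockdown, against 42% and 7.58% of all genes, and 14 of 40 lower and 2 higher with Mettl3 knockdown, against 33.8% and 5.83%. Of the 38 genes listed in every table, 11 were lower and 1 was higher in all 4, against 25.1% and 2.29%, and the 11 include the members Fgfr1 and Dusp6. The counts of higher genes depended on the scaling. From unscaled enrichment, Mettl3 knockdown in set 2 had 22 lower and 16 higher genes, against 57.9% and 30.8% of all genes, and 12 of 40 were higher in both sets, against 15.8%. With the median of shared peaks at 0 they were 20 lower and 17 higher, against 50.3% and 37.9%, and 12 of 40 higher in both sets, against 15%. With Mettl14 knockdown in set 2, 8 were higher without the constants, against 28.2%, and 11 with the median at 0, against 35.5%. Of the 38 genes listed in every table, 10 were lower and 6 higher in all 4 without the constants, against 20.6% and 6.28%. With the median at 0, 9 were lower and 8 higher in all 4, against 20.6% and 6.99%. The 9 include 1 member, Dusp6. The median log2 change of the list was -0.09 and -0.63 for Mettl14, and 0.27 and -0.85 for Mettl3, beside medians over all genes of -0.07, -0.61, 0.22 and -0.90.

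By role, among the ligands, Fgf5, a ligand that marks primed epiblast cells, showed a new peak in every table, with an enrichment of 9.29 and 8.66 in the Mettl14 knockdown libraries, 9.97 and 9.12 in the Mettl3 knockdown libraries and no listed peak in the scramble libraries. Fgf17, a ligand of the Fgf8 subfamily, had a peak with an enrichment of 7.67 and 8.39 in scramble that was lost in 3 tables and had a log2 change of -0.83 with Mettl3 knockdown in set 2 in the authors' deposited tables. Before scaling, the enrichment in that knockdown library was 7.75, against 8.39 in scramble, and the median change of all shared peaks there was -0.91. Of the receptors and co-receptors, Flrt1, a membrane protein that binds Fgf receptors, lost every peak in all 4 tables. Its scramble peaks held only 16 to 27 reads. Sdc1, the heparan sulphate proteoglycan syndecan, was lost with Mettl14 knockdown in set 2. Its log2 changes in the authors' deposited tables were -0.56 for Mettl14 in set 1, and -0.37 and -1.33 for Mettl3. Flrt3, a relative of Flrt1, had mean changes over its shared peaks of -0.77 and -2.05 for Mettl14, and 0.12 and -1.15 for Mettl3, in the authors' deposited tables. It also had a new peak with Mettl14 knockdown in set 2, with an enrichment of 21.89, and 1 of its 2 shared peaks with Mettl3 knockdown in set 1 had a change of 0.64. No adaptor or exchange factor, of 5 listed in every table, was lower or higher in all 4, against 25.1% and 2.29% of all genes.

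Among the feedback inhibitors, which hold Dusp6 and Spry4, 12 of 23 were listed in all 4 tables, and 5 were lower in all 4, against 25.1% of all genes. The 5 include Dusp6, which was chosen on these values. Among them Dusp5, a nuclear phosphatase of ERK, kept its peak in every library. It had an enrichment of 9.96 and 15.91 with Mettl14 knockdown, 11.1 and 12.91 with Mettl3 knockdown and 18.19 and 21.01 with scramble. Each knockdown value was thus below both scramble values. Every listed knockdown value was so in 14.5% of the 4074 scramble peaks found in both sets and in at least 1 knockdown library. The share among peaks listed in all 6 libraries was not computed, and Dusp5 was named because it was lower in all 4 tables. Its log2 changes were -1.01 and -0.77 for Mettl14, and -0.71 and -1.42 for Mettl3, in the authors' deposited tables. Dusp1, a phosphatase of stress kinases and ERK, was lost with Mettl3 knockdown in set 2. Its other values in the authors' deposited tables were -0.61 and -1.48 for Mettl14, and -0.71 for Mettl3 in set 1. Errfi1, an inhibitor of the EGF receptor, was lost in the same table and otherwise had -0.63 and -1.76 for Mettl14, and -0.17 for Mettl3 in set 1, in the authors' deposited tables. Spred3, a relative of the Sprouty proteins, had a peak that was lost in 3 tables, and it had -1.61 with Mettl3 knockdown in set 2 in the authors' deposited tables.

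Dusp4, a nuclear phosphatase, had mean changes of -0.73 and -1.18 for Mettl14, and -0.46 and -2.04 for Mettl3, over its shared peaks in the authors' deposited tables. A further peak of Dusp4 was lost with Mettl3 knockdown in set 1, and with Mettl3 knockdown in set 2 a peak at the same place was new, with an enrichment of 7.47. Il17rd, a membrane inhibitor of FGF signalling also called Sef, had mean changes of -0.53 and -0.84 for Mettl14, and -0.21 and -1.19 for Mettl3, in the authors' deposited tables. With Mettl3 knockdown in set 1, 1 peak of Il17rd had a change of 0.34. The relatives of Spry4 were looked at after their values were seen. Spry2 had 0.13 and -0.18 for Mettl14, and 0.58 and -0.50 for Mettl3, in the authors' deposited tables. Spry1 had -0.09 and -1.0 for Mettl14, and 0.36 and -1.15 for Mettl3, in the same tables. In both genes the set 2 value was the lower one for each knockdown, as in the median of all shared peaks, which was -0.06 and -0.59 for Mettl14, and 0.22 and -0.91 for Mettl3.

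Of the transcription targets and effectors, Srf, the DNA-binding partner of the ternary complex factors, was lower in all 4 tables, with -0.45 for Mettl14 and -0.44 for Mettl3 knockdown in set 1 and its peaks lost in set 2, in the authors' deposited tables. Jun, a subunit of AP-1, had mean changes of -0.54 and -1.37 for Mettl14, and -0.23 and -1.64 for Mettl3, over its shared peaks in the authors' deposited tables. With Mettl3 knockdown in set 2, Jun also had a new peak with an enrichment of 8.76. Egr2 and Elk4, transcription factors downstream of ERK, went opposite ways in the sets. Egr2 had 0.71 and -2.60 for Mettl14, and 1.45 and -2.13 for Mettl3, in the authors' deposited tables. Elk4 had 0.09 and -1.60 for Mettl14, and 0.98 and -2.01 for Mettl3, in the same tables. At Egr2 the scramble enrichment itself differed between sets, with 33.49 in set 1 and 154.44 in set 2, and its shared knockdown peaks held 33 to 47 reads. Egr2 also had a new peak with each knockdown in set 1. The enrichment there was 106.16 on 9 reads for Mettl14 and 234.43 on 10 reads for Mettl3.

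**Figure D5:**
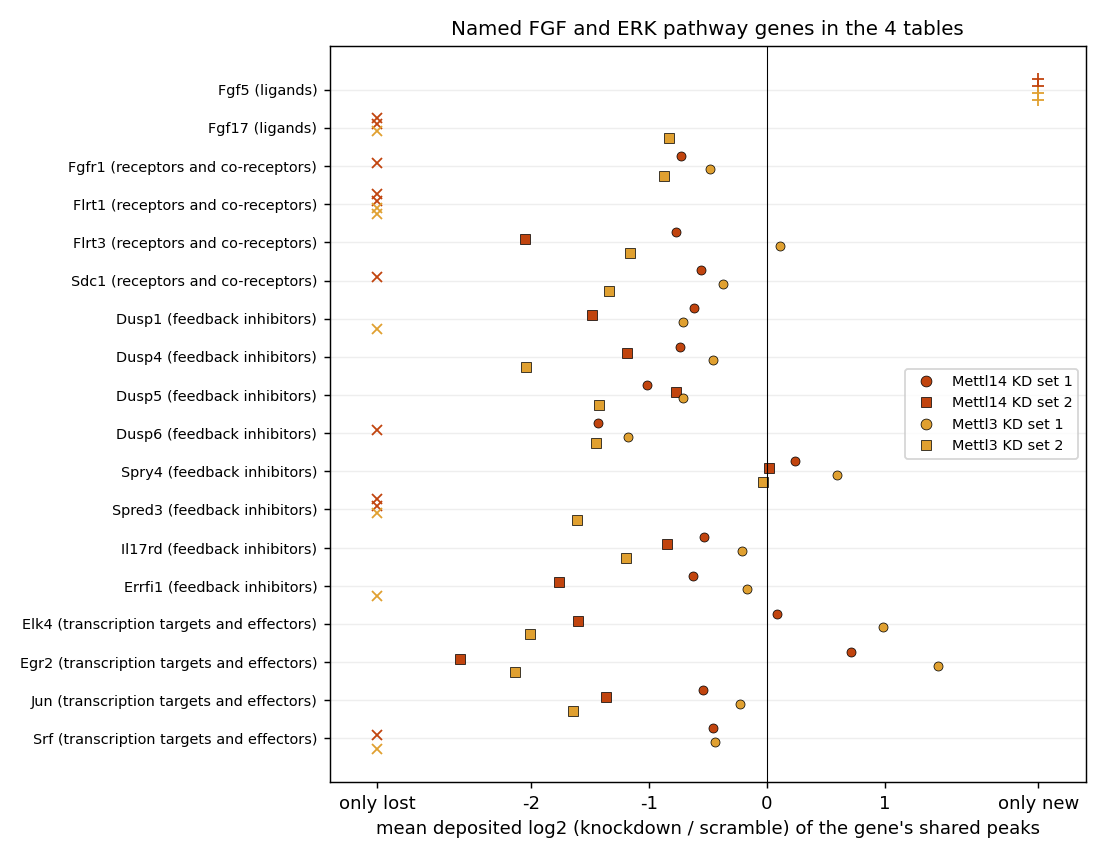
Mean log2 change of the shared peaks of each named pathway gene in the 4 deposited tables (circles for set 1, squares for set 2), with crosses where every listed peak was lost and plus signs where every one was new. Among the genes drawn, Dusp1, Dusp4, Dusp5 and Dusp6 have no point above 0, and Spry4 lies near or above 0. Egr2 and Elk4 are above 0 in set 1 and below it in set 2. New peaks of genes that also have a shared peak in the table, such as that of Dusp4 with Mettl3 knockdown in set 2, have no mark. Other Dusp genes of the list are not drawn, such as Dusp8, which was higher with Mettl3 knockdown in set 2. Dusp7, also not drawn, had 1.34 and -0.62 for Mettl14, and 0.40 and -0.63 for Mettl3, in the authors' deposited tables.

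Of the members, Spry4 alone had a peak shared in all 4 tables, and among the 2258 peaks of that kind 3 lay closest to it by Euclidean distance over the 4 deposited log2 changes. They belonged to Ing1, a reader of histone methylation, Apbb2, an adaptor of the amyloid precursor protein, and Zfyve28, a regulator of EGF receptor trafficking, at distances of 0.20 each. The peak of Ing1 (chr8:11561328-11562526) had 0.32 and 0.11 for Mettl14, and 0.75 and -0.06 for Mettl3, in the authors' deposited tables. That of Apbb2 (chr5:66451542-66452376) had 0.36 and -0.03 for Mettl14, and 0.55 and 0.12 for Mettl3, and that of Zfyve28 (chr5:34216520-34217953) had 0.24 and -0.13, and 0.46 and -0.07, in the same tables.

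Across the series, the Mettl14 knockdown libraries listed 5717 and 4367 peaks, the Mettl3 knockdown libraries 5087 and 4577, and the scramble libraries 7886 and 5438. Of 10 ES cell markers, Sox2, Klf4 and Sall4 carried a scramble peak and a knockdown peak in all 4 tables. Esrrb had a knockdown peak in 2 tables and no scramble peak. Pou5f1, Nanog, Zfp42, Dppa5a, Tdgf1 and Lin28a had no listed peak. Of 11 markers of feeder fibroblasts, Twist1 and Pdgfrb carried a scramble peak in all 4 tables and a knockdown peak in 1 and 2 tables. Thy1 had a knockdown peak in 1 table and no scramble peak. Col1a1, Col1a2, Col3a1, Vim, Fn1, Postn, Dcn and Acta2 had no listed peak. A missing peak does not show a missing mRNA, and the part of feeder RNA in the member peaks was not tested.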

How the data were processed

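The members and the gene lists were chosen with earlier results of these data known. The authors deposited 4 tables of peaks, each from 1 knockdown and 1 scramble IP library, with MACS names per the file headers. The deposited columns give a count of reads (tags) per peak, the fold enrichment as a ratio of IP to control, the same ratio after scaling by 1 constant per table (0.906 and 0.777 for Mettl14, 1.00 and 0.609 for Mettl3), a signed fold score, a peak score and an FDR in percent. What the constants rest on is not given in the headers or labels. The submitters' processing notes name Picard 1.74, SAMtools 0.1.18, TopHat2 2.0.6, Bowtie 0.12.7, cutadapt 1.1 and CASAVA 1.8.2, without roles, and the build mm10 (per the submitters' processing notes). They do not name a version of the caller.

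The signed fold score was turned into a log2 change. Scramble enrichments of shared peaks were solved from it, and those of lost peaks were taken as deposited. They were the same in both tables of a set for all 7886 and 5438 scramble peaks, shared or lost (tolerance 0.001). For a peak lost in both tables this compares deposited values only. Peaks were followed on the same strand by at least 1 nt of overlap. Peaks were placed, and motifs counted, on the GENCODE release M21 transcript with most exonic overlap, then APPRIS principal, then longest. No other row, of any gene or strand, overlapped a member peak. Scripts (Python 3.11.15, pandas 2.3.3) were tested on simulated data. No test was made: each table compares 1 library with 1 library, and the members were chosen on the same values. Library totals are missing from these columns and depth is unknown. Reads per member peak ran from 67 to 629. The 6 libraries without antibody were not analysed on their own here, and 0 per-sample columns went unmapped. Each deposited enrichment is a ratio of IP to a control (input) library, so a control library enters every value. Whether these controls are the libraries without antibody was not checked. Named pathway genes were those lower or higher in all 4 tables and the 6 others with the largest mean change among genes with a shared peak in all 4. A gene of the list is not reported here. For each member, the 3 nearest peaks were named.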

Additional observations from a re-analysis of the deposited data

How the results depend on the processing

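No paired analysis was possible because no result here comes from a test, the members having been chosen on these values. Each deposited log2 change already compares 2 libraries of the same set. In all, 25 alternative log2 changes were computed for the member peaks, of which 3 turned sign, 12 moved by more than the spread between sets (or by over 0.1 where 1 set had a value) and 10 did not.

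Without the scaling constants, the log2 change became -0.58 for the Fgfr1 stop codon peak and -1.29 for Dusp6 with Mettl14 knockdown in set 1, and 0.38 for Spry4 in set 2. With Mettl3 knockdown in set 2 it became -0.16 for the Fgfr1 stop codon peak, -0.73 for Dusp6 and 0.68 for Spry4, which was -0.03 as deposited. With the median set to 0, the values were 0.61 for Spry4 with Mettl14 knockdown in set 2, -0.73 for the Fgfr1 5' UTR peak and -1.40 for Dusp6 with Mettl3 knockdown in set 1, and -0.53 for Dusp6, 0.88 for Spry4 and 0.040 for the Fgfr1 stop codon peak with Mettl3 knockdown in set 2. By reads per nt, Mettl3 knockdown gave -0.67 for the Fgfr1 5' UTR peak in set 1, and -0.31 for the Fgfr1 stop codon peak and -0.13 for Dusp6 in set 2.

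For the FDR cuts, a row above the cut was dropped and states were not called again. The deposited FDR is that of the knockdown peak in a shared row and of the scramble peak in a lost row. A shared peak that fails in the knockdown library is therefore left out and not counted as lost. The Fgfr1 5' UTR peak with Mettl3 knockdown in set 1 is one, with 9.03% against 0.86% in scramble. At an FDR of at most 1%, Mettl14 knockdown in set 2 had 0 member peaks lost and 0 lower. Mettl3 knockdown had 2 shared and 1 lower in set 1, and 1 shared, 0 lost and 1 lower in set 2. At 5% it had 1 shared and 2 lower in set 2. The shares of all peaks at these cuts were not computed, so nothing is read from these counts about the members. With Mettl3 knockdown the higher member peaks in set 2 were 1 unscaled and 2 with the median at 0, where 2 were lower. Among all shared peaks of that table, 37% were higher unscaled and 50% with the median at 0. Leaving out either set, the member peaks lower in the remaining set numbered 3 for Mettl14 knockdown and 3 to 4 for Mettl3 knockdown, against 3 in both sets for each. The count in a single set cannot be below that in both, so no conclusion is drawn from this. Overlap of at least 50% changed no state.

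Pathway genes at an FDR of at most 1% numbered 18, 11 and 7 lower with Mettl14 knockdown in set 1, set 2 and both, and 3 and 3 higher in set 2 and both. With Mettl3 knockdown they numbered 13, 21 and 3 lower, and 2 and 1 higher in set 2 and both, where 1 was also left at 5%. Rows were cut as for the members. The shares of all genes at these cuts were not computed, so nothing is read from these counts about the pathway. Unscaled, 8 of 40 were higher with Mettl14 knockdown in set 2, against 28.2% of all genes. With Mettl3 knockdown 22 of 43 were lower and 16 higher in set 2, against 57.9% and 30.8%. In both sets 12 of 40 were higher with Mettl3 knockdown, against 15.8%. With the median at 0 there were 11 and 9 higher with Mettl14 knockdown in set 2 and both, against 35.5% and 15.7% of all genes. With Mettl3 knockdown there were 20 of 43 lower and 17 higher in set 2, against 50.3% and 37.9%, and 12 of 40 higher in both, against 15%. Leaving out either set gave 28 to 30 genes lower and 5 to 18 higher with Mettl14 knockdown, and 23 to 34 lower and 6 to 20 higher with Mettl3 knockdown. These are the counts of the single sets. They cannot be below the counts for both sets, so no conclusion is drawn from them. The cause of the moves with the FDR cut and the scaling was not tested.

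Within the limits of any library other than set 1 scramble the Spry4 peak held 0 GGACT sites, and the Fgfr1 stop codon peak held 8 DRACH sites within its Mettl14 limits, which span fewer bases.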
